A study of Bos grunniens with 6 samples.

Results

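TET1, CREBBP and TAF12 are 3 of the 20953 genes whose expression was measured in the testis of juvenile and sexually mature yaks. Of the 16318 m6A peaks that were compared between the ages, 11 are assigned to these genes, and not all of them stood out from the input. The genes share a role in chromatin and transcription, and the paper had already named all 3 from these same yaks. It listed TET1 and CREBBP among genes changed in both m6A and mRNA, and TAF12 among differentially methylated RNAs. The expression results below are therefore not independent of the choice of genes. TET1 is ENSBGRG00000009961, CREBBP is ENSBGRG00000016725 and TAF12 is ENSBGRG00000015289, the gene named for the peak that starts at position 12962180 of chromosome 2. Each library came from the testicular parenchyma of 1 healthy male yak (Bos grunniens). The juvenile group, Y6M, held 3 yaks of 6 months before sexual maturity, and the sexually mature group, Y30M, held 3 yaks of 30 months. The labels give no treatment and no allele for either group, so the groups differ in age and sexual maturity together. Polyadenylated RNA was fragmented, and MeRIP-seq, which enriches fragments carrying N6-methyladenosine (m6A) with an antibody, was run beside an input library that was not enriched. The input libraries gave the expression level in FPKM, in which the fragments of a gene are scaled to its transcript length and to the size of the library.

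TET1 oxidises methylated cytosine in DNA, the first step of active DNA demethylation, and it is known in the germline for the erasure of DNA methylation marks. The DNA mark that TET1 removes is distinct from the m6A mark measured here, which lies on the RNA. CREBBP, also called CBP, is a large histone acetyltransferase that binds phosphorylated CREB and many other transcription factors, and CREB signalling is active in Sertoli cells and in germ cells. TAF12 is a small histone-fold subunit shared by TFIID, the complex that places RNA polymerase II at promoters, and SAGA, a histone-modifying coactivator complex.

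From Y6M to Y30M the transcripts of TET1 and CREBBP fell and the transcript of TAF12 rose. TET1 was 13.4-fold lower in the mature testis, CREBBP was 2.07-fold lower and TAF12 was 3.69-fold higher, each as a ratio of mean FPKM with n = 3 yaks per group. All 3 genes were called by limma (unadjusted p up to 0.05 together with a change of 1.5-fold or more), and in none of them did the FPKM ranges of the 2 groups overlap. That share has to be read against the whole testis, where 46.3% of the 19477 genes tested were called, 27.3% as higher and 19.0% as lower in Y30M, and where 54.1% had groups that did not overlap. In whole tissue, fewer cells of a type and less RNA per cell cannot be told apart.

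The 6 libraries had similar yields, with 16947 to 17295 genes above 0 FPKM in juvenile and 17677 to 18052 in mature yaks. Read counts were not analysed here. The steps between low FPKM values put the depth of the libraries between 0.752 and 1.07 times that of Y30M replicate 1, the shallowest being Y6M replicate 3. The labelled tissue was checked on marker genes, of which 5 of 41 could be paired with an identifier. The Sertoli cell markers SOX9 and FSHR, the Leydig cell marker LHCGR, the spermatocyte marker SYCP3 and the endothelial marker PECAM1 were above 0 in all 6 libraries, and no marker of spermatogonia, spermatids or peritubular cells could be checked. All 5 were called, against 46.3% of all genes tested. Their names came from tables in which changed genes and changed peaks are overrepresented, and 59.5% of the genes named in this way, TET1, CREBBP and TAF12 left out, were called. The summed FPKM of SOX9 and FSHR ranged from 65.7 to 93.2 over the juvenile and from 19.5 to 35.4 over the mature yaks. LHCGR ranged from 34.4 to 67.3 and then from 1.44 to 5.37, and PECAM1 from 5.75 to 10.5 and then from 2.03 to 3.08. SYCP3 ran the other way, from 1.91 to 5.27 over the juvenile and from 7.18 to 31.4 over the mature yaks. TET1 and CREBBP fell, as did the somatic markers, and TAF12 rose, as did SYCP3, the only germ cell marker available. With markers found in this way, and 1 gene for the germ cells, a shared direction does not link a gene to a cell type. Marker levels are not cell counts. In tissue sections the paper describes more interstitial cells and more layers of germ cells after maturity, whereas LHCGR fell. The part of cell composition in the result was not tested.

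TET1, the DNA demethylase, was the least abundant of the 3 genes. In order of replicate number, the juvenile yaks had 1.75, 1.85 and 4.08 FPKM and the mature yaks 0.207, 0.0766 and 0.290 FPKM. Y6M replicate 3 was high among the juvenile yaks, and every mature yak was below every juvenile yak. The Y6M mean of 2.56 ± 1.32 FPKM compares with a Y30M mean of 0.191 ± 0.107 FPKM (SD, n = 3 yaks each). On the log2(FPKM + 1) scale TET1 fell by 1.52 (SE 0.27, 95% interval -2.20 to -0.85), with a Benjamini-Hochberg adjusted p of 0.00698 over all genes in limma. Adding 1 to each value shrinks the change of a gene this low. With 0.1 added in place of 1 the log2 difference was -3.16, and the plain log2 ratio of the means was -3.74. The size of the fall therefore rests on mature levels close to 0, and the number of reads behind these levels was not worked out here.

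CREBBP, the histone acetyltransferase, was the most abundant of the 3 genes in the juvenile testis. The juvenile yaks had 25.2, 26.9 and 30.3 FPKM and the mature yaks 15.5, 12.6 and 11.7 FPKM. Values within a group lay close together, and the highest mature yak stayed well below the lowest juvenile yak. The means were 27.5 ± 2.62 FPKM (Y6M) and 13.2 ± 1.96 FPKM (Y30M), with SD over n = 3 yaks each. CREBBP fell by 1.0 on the log2(FPKM + 1) scale (SE 0.14, 95% interval -1.36 to -0.65, adjusted p = 0.00315, limma). This was the smallest change of the 3 genes, and 14.7% of all genes tested had a lower log2 fold change. The corresponding share for TET1 was 8.45%.

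TAF12, the shared subunit of TFIID and SAGA, was the gene that rose. The juvenile yaks had 4.12, 3.99 and 5.10 FPKM and the mature yaks 16.3, 13.0 and 19.5 FPKM. The lowest mature yak had more than the highest juvenile yak by a wide margin. The means were 4.41 ± 0.605 FPKM (Y6M) and 16.2 ± 3.25 FPKM (Y30M), with SD over n = 3 yaks each. TAF12 rose by 1.66 on the log2(FPKM + 1) scale (SE 0.18, 95% interval 1.22 to 2.10, adjusted p = 0.00118, limma), and 85.5% of all genes tested had a lower log2 fold change. For each of the 3 genes the exact two-sided permutation test over the 6 yaks gave p = 0.1, the smallest that 3 against 3 samples can give.

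**Figure D1:**
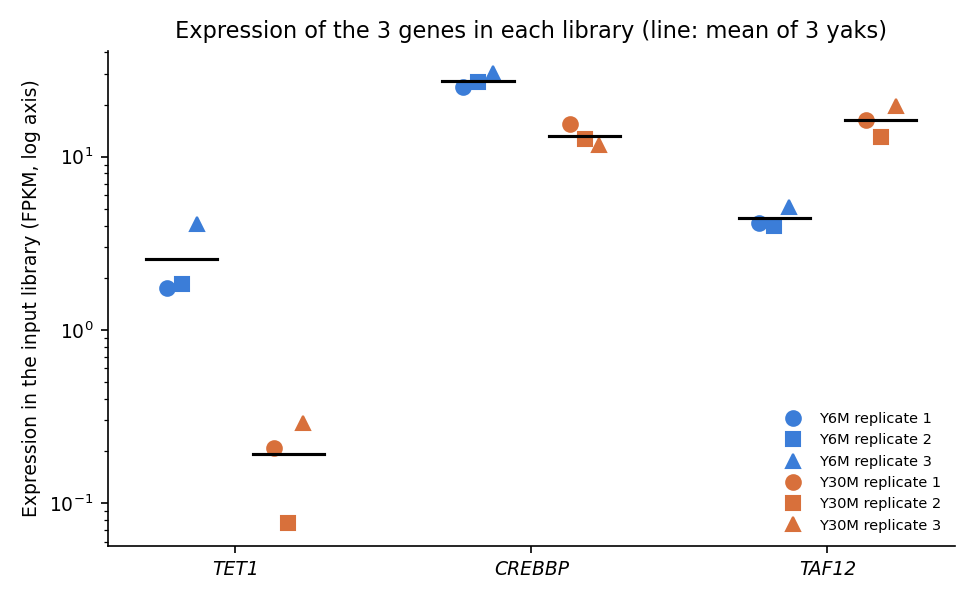
FPKM of TET1, CREBBP and TAF12 in each of the 6 input libraries on a log axis, with Y6M in blue, Y30M in orange, 1 marker shape per replicate number and a line at the mean of 3 yaks. The Y6M and Y30M points of each gene do not overlap, and TET1 drops from a mean of 2.56 to 0.191 FPKM while TAF12 climbs from 4.41 to 16.2 FPKM.

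The order of the 3 genes changed with age. In Y6M the order of mean FPKM was CREBBP, TAF12, TET1. CREBBP stood apart, whereas TET1 in Y6M replicate 3, at 4.08 FPKM, reached into the TAF12 range of 3.99 to 5.10 FPKM, although TAF12 was the higher of the pair in each single library. In Y30M the order of mean FPKM was TAF12, CREBBP, TET1. The FPKM ranges of TAF12 (13.0 to 19.5) and CREBBP (11.7 to 15.5) overlapped there, and TET1 lay far below both.

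Ratios within a library do not depend on how the libraries are scaled against each other. The FPKM ratio of TAF12 to CREBBP went from 0.164, 0.149 and 0.168 in the juvenile to 1.05, 1.03 and 1.66 in the mature yaks. The mature ratios were all above 1, and replicate 3 was the highest. The mean ratio was 0.160 ± 0.0103 before and 1.25 ± 0.359 after maturity (SD, n = 3 yaks each), a 7.61-fold rise of the geometric mean. The ratio of TET1 to CREBBP went from 0.0695, 0.0689 and 0.135 to 0.0134, 0.00609 and 0.0247, so that TET1 was 6.84-fold lower relative to CREBBP in the mature yaks. The ratio of TET1 to TAF12 went from 0.424, 0.464 and 0.801 to 0.0127, 0.00590 and 0.0149, a 52.1-fold lower geometric mean. None of the 3 ratios overlapped between the groups, and each gave the smallest exact two-sided permutation p of 0.1. The ratios are built from the same 3 genes and are not independent of the fold changes above. Where TAF12 is in the ratio, the lack of overlap and the p were fixed beforehand. They follow from genes that moved in opposite directions without overlap.

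The place of each gene among the genes detected in its own library showed the same exchange. CREBBP exceeded 81.0%, 82.0% and 82.7% of the detected genes in the juvenile yaks but 64.9%, 65.4% and 59.6% in the mature yaks. TAF12 exceeded 46.4%, 45.6% and 45.8% in the juvenile but 66.0%, 66.0% and 69.7% in the mature yaks. TET1 exceeded 34.4%, 35.0% and 42.3% in the juvenile but 11.4%, 6.22% and 14.3% in the mature yaks. CREBBP thus kept a place above the middle of the detected genes at both ages, TAF12 moved from just below the middle to above it, and TET1 moved into the lowest part.

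**Figure D2:**
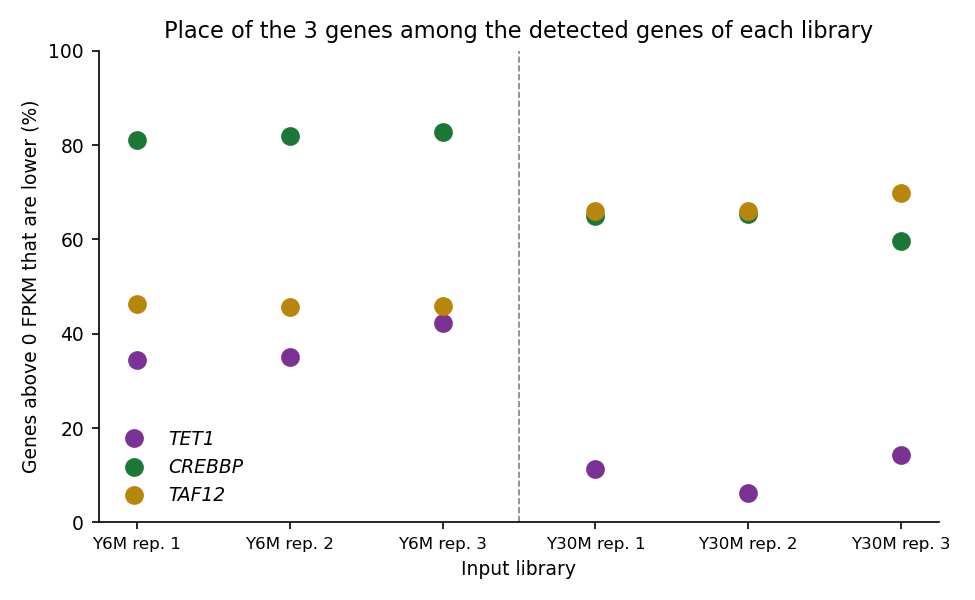
Share of the genes above 0 FPKM that are lower than TET1, CREBBP or TAF12 in each input library, in percent, with Y6M libraries left and Y30M libraries right of the dashed line. TAF12 and CREBBP lie close together in Y30M replicates 1 and 2, and TET1 is the lowest of the 3 genes in each library.

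All 15 alternative settings kept each of the 3 genes on the same side of the call and in the same direction. For TET1 the log2 difference ran from -3.16 with a pseudocount of 0.1 to -1.24 without Y6M replicate 3. The log2 difference of CREBBP ran from -1.12 to -0.84 and that of TAF12 from 1.53 to 1.90. The highest adjusted p over these settings was 0.0260 for TET1, 0.0169 for CREBBP and 0.00842 for TAF12 in limma.

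**Figure D3:**
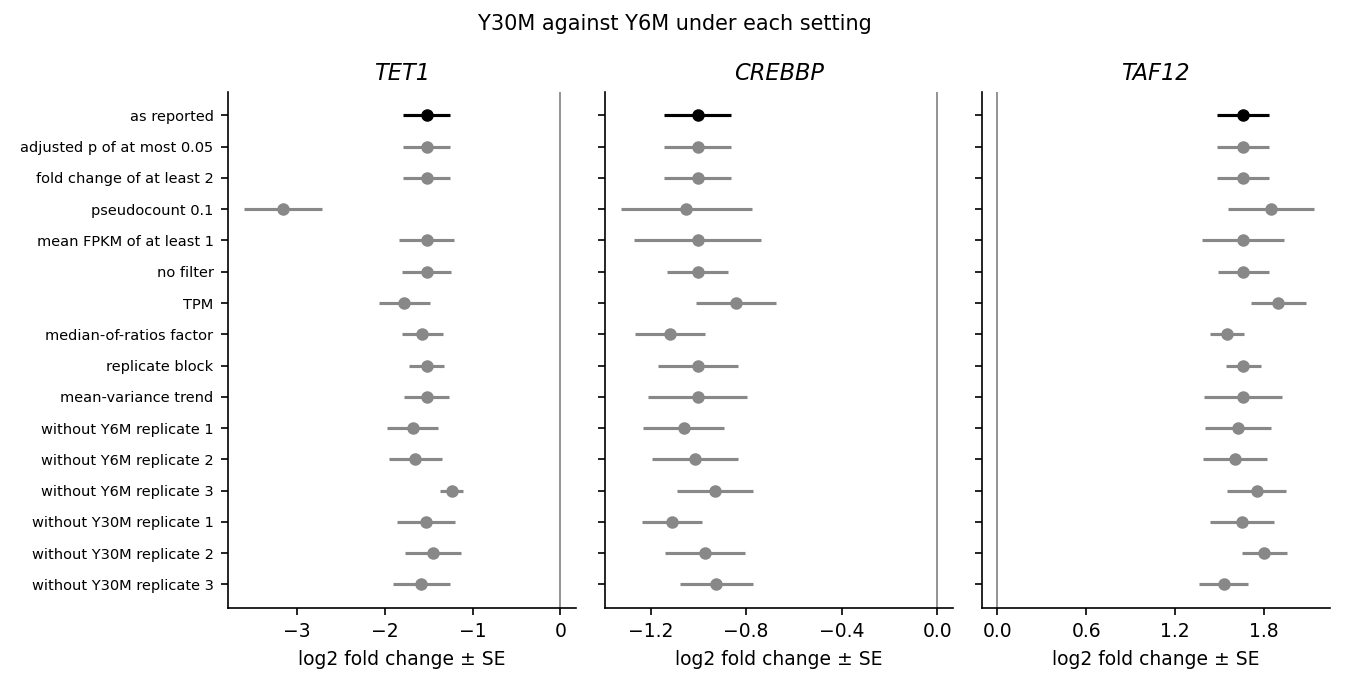
Log2 fold change of TET1, CREBBP and TAF12 (Y30M against Y6M, with SE bars from limma) as reported, in black, and under 15 other settings, in grey. No point crosses 0, and the pseudocount of 0.1 moves TET1 to -3.16.

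The partners of the 3 genes were taken from 3 lists, of which 12 of 67 genes could be paired with an identifier. These pairings came from tables in which changed genes and changed peaks are overrepresented, and 59.5% of all genes named in this way, the 3 genes left out, were called against 46.3% of all genes. The list of DNA methylation and its removal had 12 genes, and TET1 was the 1 gene with an identifier, so that no values can be given here for its paralogs TET2 and TET3 or for the DNA methyltransferases.

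In the list of CBP/p300 and CREB coactivators, 6 of 22 genes had an identifier. CREBBP fell, NCOA2 rose and the other 4 did not pass. NCOA2, a nuclear receptor coactivator that works with CBP, had 9.83, 9.99 and 13.5 FPKM in the juvenile and 20.2, 23.2 and 15.9 FPKM in the mature yaks. The groups did not overlap, and the log2 difference was 0.78 (SE 0.19, adjusted p = 0.0232, limma), while CREBBP moved the other way. The 4 genes that did not pass were ATF2, a CREB-family factor, CRTC1, a CREB coactivator, KAT2A, the acetyltransferase of SAGA, and NCOA1, a close relative of NCOA2. Their log2 differences were -0.12, 0.12, -0.23 and 0.46. The median log2 fold change of the 6 genes was -0.00012, beside 0.04 over all genes tested.

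In the list of TFIID, SAGA and basal factors, 5 of 33 genes had an identifier. TAF12 and TAF4B rose, SUPT7L fell and TAF11 and GTF2A1 did not pass. TAF4B is the germ cell-enriched form of TAF4, the histone-fold partner of TAF12 within TFIID. Its FPKM was 4.61, 4.01 and 5.38 in the juvenile and 19.5, 9.73 and 16.9 in the mature yaks. The mature yaks were all above the juvenile yaks, and the log2 difference was 1.49 (SE 0.27, adjusted p = 0.00814, limma). Y30M replicate 2 was the lowest mature yak for all 5 genes of this list, so this is not particular to TAF4B and TAF12. That library also had the lowest median FPKM of the mature yaks, 3.03 against 4.18 and 4.26. TAF11, another histone-fold subunit of TFIID, averaged 14.1 ± 3.23 FPKM before and 13.0 ± 4.01 FPKM after maturity (log2 difference -0.13, SE 0.28), with overlapping groups. SUPT7L, a subunit of SAGA and not of TFIID, had 7.58, 7.27 and 8.50 FPKM in the juvenile and 6.23, 3.24 and 4.83 FPKM in the mature yaks. Its log2 difference was -0.64 (SE 0.21, adjusted p = 0.0614, limma), and the call, made on the unadjusted p, was lost under the adjusted p and when any one library other than Y30M replicate 1 was left out. GTF2A1, a subunit of the basal factor TFIIA, averaged 12.6 ± 4.88 FPKM before and 22.0 ± 6.31 FPKM after maturity (log2 difference 0.78, SE 0.32, adjusted p = 0.107, limma), and its call was gained in some settings. The median log2 fold change of the 5 genes was 0.78, the value of GTF2A1, beside 0.04 over all genes tested. The 5 genes include TAF12 and leave out most of the list, so this median does not describe the list.

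**Figure D4:**
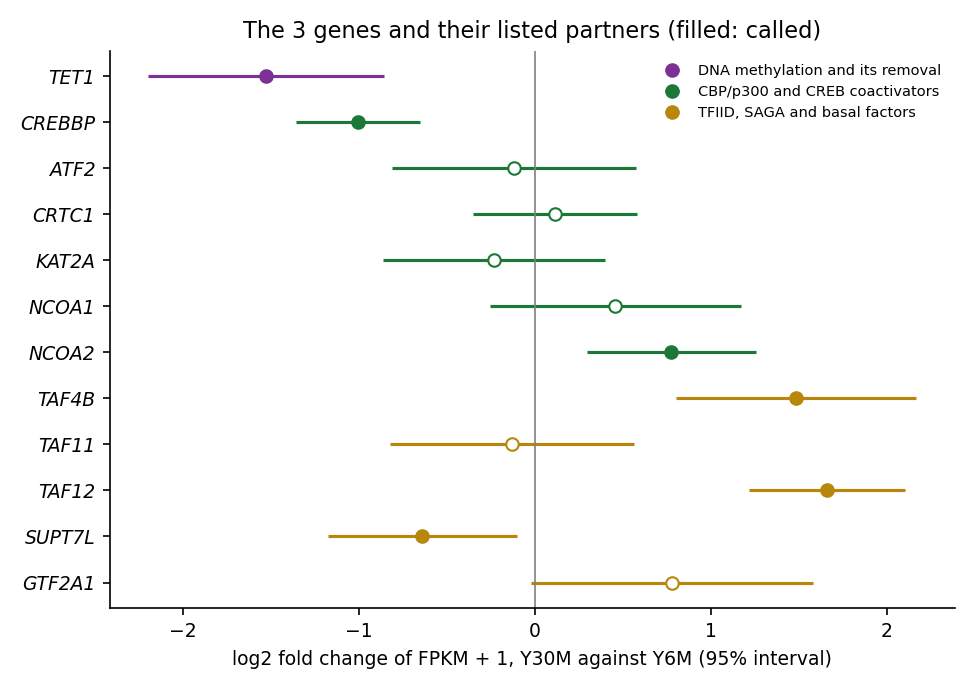
Log2 fold change of FPKM + 1 (Y30M against Y6M) with 95% intervals from limma for the 12 genes of the 3 lists that had an identifier, coloured by list, with filled points for called genes. TAF12 and TAF4B lie on the right at 1.66 and 1.49, TET1 and CREBBP on the left at -1.52 and -1.0.

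The genes with the most similar pattern were sought among 1988 named genes with a mean of at least 1 FPKM, by the Euclidean distance between mean-centred log2(FPKM + 1) values over the 6 libraries. For TET1 these were FAM13A (distance 0.240), LDB2 (0.341) and LPAR5 (0.359). LPAR5, a lysophosphatidic acid receptor, was also the one nearest in level, with 1.91 ± 0.994 FPKM before and 0.179 ± 0.108 FPKM after maturity. For CREBBP the nearest were SMARCC2 (distance 0.192), MYBPHL (0.230) and TMEM241 (0.230). SMARCC2, a core subunit of the SWI/SNF chromatin remodelling complex, went from a juvenile mean of 45.3 ± 3.75 FPKM to a mature mean of 23.7 ± 4.59 FPKM. For TAF12 the nearest were DCAF6 (distance 0.219), SV2B (0.223) and DNM3 (0.234). DCAF6, an adaptor of a ubiquitin ligase, went from a juvenile mean of 5.87 ± 1.14 FPKM to a mature mean of 21.3 ± 4.62 FPKM. The distance is a description over 6 libraries that mostly follows the difference between the ages. Because 1 is added to each value, a gene of another level can lie near with a different FPKM ratio. SV2B went from a juvenile mean of 0.285 to a mature mean of 3.23 FPKM, and FAM13A from 6.27 to 1.51 FPKM.

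The m6A peaks of the 3 genes were called on the LU_Bosgru_v3.0 genome with the input as control. A peak can span introns, and its exon blocks are the stretches that hold the signal. Each peak of the compared set has 1 fold enrichment over input and 1 FDR for that enrichment. These values are pooled over the libraries of both ages, so no error over yaks and no value per age can be given. TET1 had a mean of 0.191 FPKM in Y30M against 2.56 in Y6M. How far the mature libraries carry its peaks was not tested. TET1 had 5 peaks, CREBBP had 4 and TAF12 had 2, where the median over the 8809 genes with a peak was 1. At least 4 peaks were found in 8.08% of these genes and at least 5 in 3.45%. Of the peaks of TET1, CREBBP and TAF12, 4 of 5, 4 of 4 and 1 of 2 had an FDR of at most 0.05, against 69.0% of all peaks. Which exon, intron or UTR a peak covers was not analysed here.

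The TET1 peaks lay on the plus strand of chromosome 27, over 127705 bases from the first to the last. The first ran from 24450902 to 24531895 with 4 exon blocks that sum to 350 bases, the smallest of 7 bases, a fold enrichment of 2.11 and an FDR of 1. It is the one TET1 peak that did not stand out from the input. The second ran from 24532195 to 24532594 as 1 block of 400 bases, with the highest fold enrichment of the gene, 3.25, and an FDR of 0.0363. The third ran from 24533393 to 24537546 with 3 blocks of 651 bases in all, a fold enrichment of 2.23 and an FDR of 0.0324. The last 2 peaks lay 40210 bases further downstream and were 99 bases apart, from 24577757 to 24578107 and from 24578207 to 24578606. Their fold enrichments were 2.97 and 2.35 and their FDR was the same, 0.00537. The highest enrichments of TET1 were thus those of the second peak and of the first peak of the downstream pair.

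The CREBBP peaks lay on the plus strand of chromosome 26, over 107788 bases. The first ran from 44363116 to 44364442 with 2 blocks of 598 bases in all, a fold enrichment of 3.15 and an FDR of 3.72e-06. The second ran from 44437366 to 44439620 with 2 blocks of 250 bases in all, a fold enrichment of 2.09 and an FDR of 6.61e-08. The other 2 formed a pair at the downstream end, as in TET1, 98 bases apart and each of a single block. They ran from 44469110 to 44469708 and from 44469807 to 44470903, with fold enrichments of 2.78 and 3.60 and the same FDR of 1.55e-10. The last peak, of 1097 bases, had the highest enrichment among the 11 peaks, above that of 88.8% of all peaks.

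The TAF12 peaks lay on the minus strand of chromosome 2, over 14906 bases. The peak from 12962180 to 12972351 had 4 blocks of 493 bases in all, a fold enrichment of 1.84 and an FDR of 9.55e-09. The peak from 12957446 to 12961444, which is downstream because the gene lies on the minus strand, had 2 blocks of 149 bases in all, a fold enrichment of 2.36 and an FDR of 1. The TAF12 peak with the lower fold enrichment was therefore the one that passed the FDR. Both were spread over short blocks of at most 252 bases, where the last 2 peaks of TET1 and of CREBBP were single blocks of 351 to 1097 bases. The median fold enrichment over all peaks was 2.31, with quartiles of 1.78 and 3.0.

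**Figure D5:**
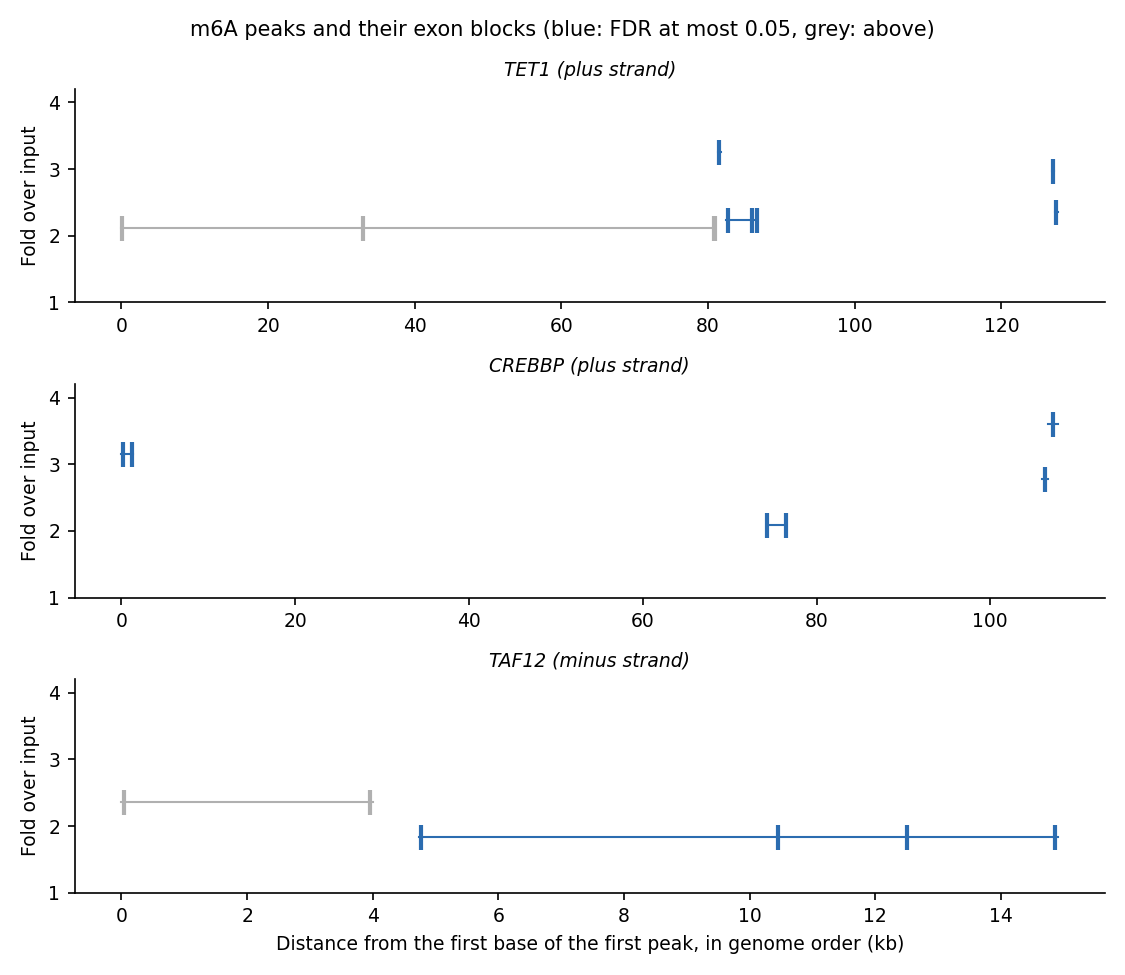
Fold enrichment over input of the m6A peaks of TET1, CREBBP and TAF12 against the distance from the first base of the first peak (kb, in genome order), with a vertical tick at the middle of each exon block and a line joining the blocks of a peak. Blue peaks have an FDR of at most 0.05 and grey peaks do not. TET1 and CREBBP each end in a pair of single-block peaks, and TAF12, on the minus strand, is read from right to left.

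Peaks were also listed for each age. The list of Y30M used here covers chromosomes 1 and 2, so that TAF12 is the one gene of the 3 with both ages. Its peak from 12962180 to 12972351 had the same bounds in both lists. The peak from 12957446 to 12961444 was in the list of Y30M and not in that of Y6M, and it is the TAF12 peak whose enrichment had an FDR of 1 in the compared set. In the list of Y6M, CREBBP had 4 peaks and TET1 had 6. One TET1 peak of that list, from 24533044 to 24533194, overlapped no peak of the compared set. With 1 list per group, the difference between the TAF12 lists has no replicate check. The TAF12 transcript was also more abundant in Y30M, at a mean of 16.2 FPKM against 4.41 in Y6M. Whether this affected which peaks were listed was not tested.

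The same lists score adenosines for their likeness to m6A sites, and a score of at least 0.528 was classed as a predicted site. In the peaks of TET1 in Y6M, 325 of 2035 scored adenosines were predicted sites, or 16.0% (exact binomial 95% interval 14.4 to 17.6). In CREBBP they were 46 of 138, or 33.3% (25.5 to 41.9), and in TAF12 63 of 264, or 23.9% (18.9 to 29.5), where the whole list of Y6M had 21.5%. These intervals treat the adenosines as independent, cover counting error only and hold no spread over yaks. Of the 2035 adenosines of TET1, 1498 lay in 1 listed peak. That peak overlaps the compared TET1 peak that did not stand out from the input. CREBBP had the highest share of the 3 genes and TET1 the lowest.

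The exon blocks are those of the compared set, whose peaks have other bounds than some peaks of the Y6M list. Most of the scored adenosines of the Y6M list lay outside these blocks in all 3 genes, 97.3% of them in TET1, 70.3% in CREBBP and 97.3% in TAF12. Of the 1981 such adenosines of TET1, 1550 lay between the blocks of a compared peak and 431 in no compared peak, and of the 97 of CREBBP these were 49 and 48. All 257 of TAF12 lay between the blocks of its compared peak. Inside the blocks of TET1, 18 of 54 adenosines were predicted sites, or 33.3% (21.1 to 47.5), against 307 of 1981 outside, or 15.5%. For CREBBP the values were 25 of 41 inside, or 61.0% (44.5 to 75.8), against 21 of 97 outside, or 21.6%. For TAF12 they were 3 of 7 inside, or 42.9% (9.90 to 81.6), against 60 of 257 outside, or 23.3%. Of the predicted sites, 94.5% of those of TET1, 45.7% of those of CREBBP and 95.2% of those of TAF12 lay outside the blocks. A count of all predicted sites of a gene is therefore mostly a count of adenosines outside the exon blocks in TET1 and TAF12.

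The score is a prediction for a position and not a measurement of m6A, and it was nearly always the same in both lists. All 264 TAF12 adenosines in both lists had the same score in each, as had 97.6% of the 115368 adenosines of chromosomes 1 and 2 in both lists. Equal scores therefore do not tell whether m6A on TAF12 changed with age. The chromosomes of TET1 and CREBBP were not compared in this way. In 10 pairs of overlapping peaks on opposite strands in the list of Y6M, 97 of the 98 adenosines of the plus-strand peaks were also scored in the minus-strand peak, so that in these overlaps the scoring did not follow the strand of the peak. The list of Y30M was not checked for this. Whether the scored letters of a gene lie on its transcribed strand was not tested.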

How the data were processed

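Testis RNA of 6 yaks, 3 per group, was analysed from the deposited tables. Per the paper's methods the authors trimmed the reads, aligned them with HISAT2 to LU_Bosgru_v3.0, kept aligned reads, called peaks with MeTDiff and expressed gene levels as FPKM. Tool versions are not given in the sources used here. The deposited FPKM values are not counts, and depth was estimated here only relative to one library. The sequencing and alignment statistics that the paper lists were not used. Deposited peaks carry a fold enrichment, a ratio over input pooled over the libraries, and an FDR deposited as a log score, whose base-10 antilog was taken. The deposited site lists give a score per adenosine. Columns with the authors' comparison between the ages (fold changes, p and FDR values) were not used, and differential methylation is not analysed here.

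Genes above 0 FPKM in at least 1 library were fitted on log2(FPKM + 1) with limma 3.58.1 in R 4.3.3 (moderated variances, Benjamini-Hochberg adjustment over 19477 genes). Genes were called where the unadjusted p was up to 0.05 and the change 1.5-fold or more. Exact tests and intervals used SciPy 1.17.1. The fit was tested on simulated data. Shares of scored adenosines have exact binomial intervals. The table of genes pairs no identifier with a name, so 2135 names came from the identifier and name columns of the study's supplementary tables, which are partly shortened and hold mostly called genes or peaks. No identifier matched the RefSeq table (assembly Bosgru_T2T1.0). In that assembly 5 non-coding genes or pseudogenes overlap TET1 and none overlaps CREBBP or TAF12, and how reads of overlapping genes were assigned is not given in the sources used here. No sequence is shown.

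Named genes are the 3 genes, list genes with an identifier (values for TAFs and for the strongest rise and fall, with the remaining genes in brief), and the 3 named genes most like each. SUPT7L and GTF2A1 are given because their calls change with the setting. The 3 genes and the lists were chosen with earlier results of these data known. Samples with the same replicate number deviated together from their group means (correlation over 19477 genes 0.209, 0.283 and 0.604), which meets the rule used for pairing, but differently numbered samples reached 0.322 and the labels do not say what a number shares. Alternatives changed the pseudocount, filter, scaling, block, variance model, thresholds and libraries.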

Additional observations from a re-analysis of the deposited data

How the results depend on the processing

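TET1, CREBBP and TAF12 kept their direction and their call in all 15 alternatives. CREBBP passed the fold change of at least 2 only narrowly, with a log2 difference of -1.0025, and under TPM its log2 difference was -0.84. With the replicate block the log2 differences of the 3 genes were again -1.52, -1.0 and 1.66. In that setting 9747 genes were called in place of 9011, with no change of call among the 3 genes. Over all genes the count of calls ran from 7021 at a fold change of at least 2 to 10144 with a pseudocount of 0.1. The split of 5320 higher and 3691 lower genes became 6073 and 3324 under TPM scaling and 4968 and 4206 with a median-of-ratios factor, and the median log2 difference of all genes was 0.11 under TPM, 0.13 with a pseudocount of 0.1 and 0.13 for genes with a mean of at least 1 FPKM. The list of CBP/p300 and CREB coactivators had 0 genes called as higher at a fold change of at least 2, and 1 to 2 when a library was left out, the second being NCOA1 without Y30M replicate 2. The list of TFIID, SAGA and basal factors had 1 gene called as lower, SUPT7L, and 0 with the adjusted p, a fold change of at least 2, a pseudocount of 0.1, a mean of at least 1 FPKM, TPM or a mean-variance trend, and 0 to 1 when a library was left out. GTF2A1 was called as higher, as the third gene of that list, for a mean of at least 1 FPKM, under TPM, the median-of-ratios factor, the replicate block and the trend, and without Y6M replicate 3 or Y30M replicate 2. The cause of these changes was not tested. At an FDR of at most 0.01, TET1 had 2 peaks, and at an FDR of at most 0.05 with a fold enrichment of at least 2, TAF12 had 0. With a score of at least 0.6 the shares of adenosines were 5.85% for TET1, 16.7% for CREBBP, and 10.6% (Y6M) and 10.4% (Y30M) for TAF12. Inside exon blocks the shares of predicted sites were 33.3%, 61.0%, 42.9% and 33.3% in the same order. The 7 and 9 adenosines behind the TAF12 values set their precision, as do 3 yaks per group for expression.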
